A study of Mus musculus with 4 samples.

Results

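The 10 genes described here make glutathione, use it, or belong to the antioxidant programme of the transcription factor NRF2. They are Gclc, Gclm, Gss, Gsr, Slc7a11, Nqo1, Hmox1, Txnrd1, Gpx1 and Nfe2l2. They were taken by symbol from the gene table, and all 10 were found among its 31054 genes. The tissue was lung from male C57BL/6 mice that were 19 months old when treatment began and were treated for 1 month. Of 4 single-cell RNA libraries, 2 came from mice given BPTES, a small-molecule inhibitor of glutamine use, and 2 from mice given DMSO. Lungs were digested with Liberase for 1 h and sorted on CD45, the surface protein of leukocytes, and 20000 CD45- cells were mixed with 9000 CD45+ cells of the same tissue for each library. The labels do not say that the libraries came from different animals, so each p-value measures the spread between libraries, which may be technical.

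Glutathione is a tripeptide of glutamate, cysteine and glycine, and is the main soluble thiol of the cell. Glutamate-cysteine ligase, made of the catalytic subunit Gclc and the modifier subunit Gclm, joins glutamate to cysteine, and glutathione synthetase, encoded by Gss, adds glycine. Slc7a11 is the transport subunit of the antiporter that imports cystine in exchange for glutamate, so glutamate bears on both the substrate and the export side of the pathway. Gpx1 spends glutathione to reduce peroxides, and Gsr regenerates the reduced form with NADPH. Txnrd1 does the same for thioredoxin, Nqo1 reduces quinones, and Hmox1 degrades haem. Nfe2l2 encodes NRF2, which is held back by Keap1 and displaced at its DNA sites by Bach1, and which activates many of these genes through the antioxidant response element. In the lung, epithelial cells line a surface open to air, and macrophages and neutrophils make oxidants themselves.

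On GRCm38, Gclc lies on the plus strand of chromosome 9 from 77754535 to 77794485, and Gpx1 on the same chromosome and strand from 108338903 to 108340343. Gclm spans 122245557 to 122270732 on the plus strand of chromosome 3, and Slc7a11 spans 49892526 to 50443614 on its minus strand. Gss occupies 155563181 to 155592810 and Nfe2l2 occupies 75675513 to 75704641, both on the minus strand of chromosome 2. Chromosome 8 holds Gsr from 33652523 to 33698163 and Hmox1 from 75093621 to 75100589 on the plus strand, and Nqo1 from 107388225 to 107403206 on the minus strand. Txnrd1 lies on the plus strand of chromosome 10 from 82833951 to 82897712. All 10 are annotated as protein coding.

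The core of the antioxidant response element, TGACNNNGC, was searched on both strands of RefSeq promoter windows on GRCm38.p6, each of 300 bases from 250 before to 50 after a start site. Windows were held for 7 members: Gclm, Gss, Slc7a11, Nqo1, Txnrd1, Gpx1 and Nfe2l2. The 7 have 9 windows, as Txnrd1 has 3. The core was matched once in 3 of the 9, each of a different gene, and in 4038 of all 32544 windows (12.4%). The 3 stretches below are shown because they hold these matches upstream of the start site, in capitals. They are printed 5′ to 3′ on the gene's strand, from chr3:122245408-122245446 (plus), chr10:82859099-82859137 (plus, before the second of 3 annotated starts of Txnrd1 and inside the gene's span) and chr2:75704880-75704913 (minus).
Gclm: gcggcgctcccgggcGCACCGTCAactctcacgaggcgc
Txnrd1: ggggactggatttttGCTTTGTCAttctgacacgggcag
Nfe2l2: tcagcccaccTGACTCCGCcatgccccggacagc
The match begins 134 bases before the start in Gclm and 92 before it in Txnrd1. Both are in the reverse orientation, so that the capitals spell the reverse complement of the core. In Nfe2l2 it begins 240 bases before the start in the forward orientation. A match describes letters in a window and is not shown to be a bound site.

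The deposited tables hold 16440 to 21986 cell barcodes and 260346570 to 342107092 unique molecular identifiers (UMIs, each standing for 1 captured RNA molecule) per library. After filtering, 63895 cells remained, with a median of 13918 to 15752 UMIs per cell in a library. They formed 38 clusters, of which 33 were named by marker genes and joined into 25 cell classes, each called "-like" because its name rests on markers. The 5 unnamed clusters held 8338 cells (13%). BPTES was compared with DMSO in the 20 classes of which every library held at least 30 cells. The cluster named conventional dendritic 2-like also had Xcr1 and Siglech, known from other dendritic types, among its leading genes, and the pericyte-like cluster held the smooth muscle gene Myh11. Between 75 and 121 barcodes were shared by each pair of libraries.

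Levels are given on the CPM scale: the UMIs of a gene summed over the cells of a class in 1 library, scaled to the class's total with TMM factors. The level of a single cluster uses the TMM factors of that cluster's own fit. Sums of markers or of whole libraries, levels of Slc3a2, Keap1 and Bach1, levels in mast and basophil-like cells and correlations over 25 classes use CPM without TMM factors. With the classes made from the same cells, the order of levels is a description and was not tested. The members did not share one pattern across the lung. Orders and spans of the members are over the 20 classes compared between groups. The 5 named classes with too few cells in a library are left out of them. Among the 20, myeloid classes held the highest mean level of 5 members (Gsr, Slc7a11, Hmox1, Gpx1 and Nfe2l2). Epithelial classes held that of 4 (Gclc, Gclm, Gss and Txnrd1), and lymphatic endothelial-like cells that of Nqo1. For Gss and Nqo1 the next class was of another kind, and its range overlapped that of the highest.

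**Figure D1:**
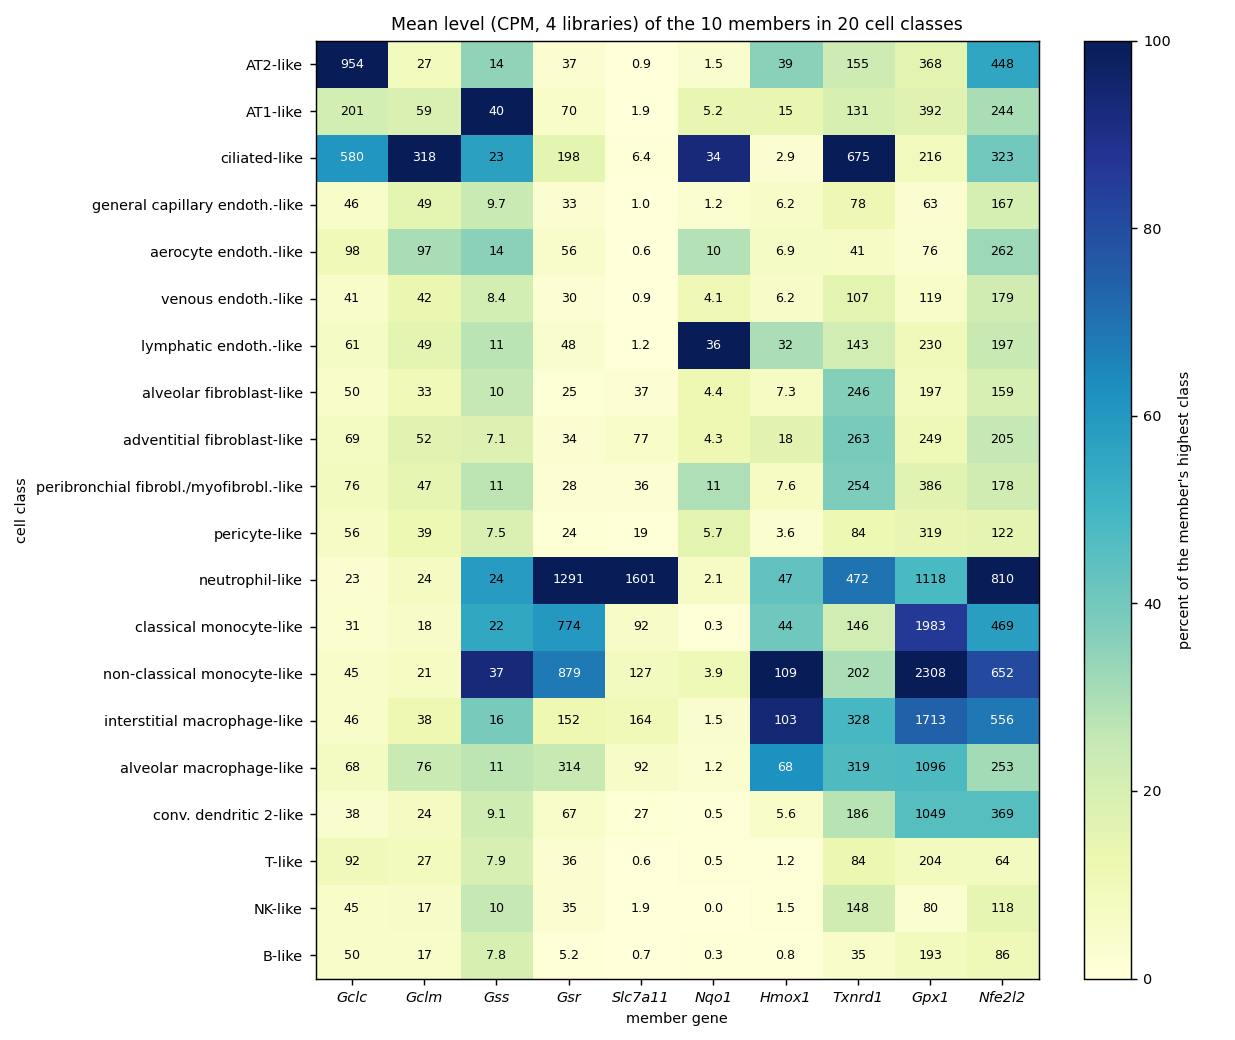
Mean level of each member (columns) in 20 cell classes (rows). Printed values are CPM averaged over 4 libraries, and colour gives the percent of that member's highest class, so colours compare classes within a gene and not genes with each other. Gclc peaks in AT2-like cells, Slc7a11 and Gsr in neutrophil-like cells, and Gclm and Txnrd1 in ciliated-like cells.

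Gclc, the catalytic subunit of the first step, was an epithelial gene in these libraries. In AT2-like cells, the surfactant-making cells of the alveolus, its level averaged 954 ± 230 CPM (SD, n = 4 libraries). Ciliated-like cells followed at 580 ± 82.6 CPM and AT1-like cells at 201 ± 34.4 CPM, and the ranges over libraries of these neighbours did not overlap. The next class, aerocyte endothelial-like, averaged 98.1 ± 11.3 CPM, and the lowest, neutrophil-like, 23.2 ± 6.69 CPM, a 41.1-fold span from the top. Only 4 of the 19 neighbouring pairs in the order of Gclc had ranges clear of each other. T-like cells averaged 92 ± 12.8 CPM, but this mean joined unlike clusters. The T-like cluster led by Il23r, Cd163l1 and Trdc, genes known from gamma-delta T cells that make interleukin 17, measured 190 to 221 CPM over the libraries, against 34.9 to 82.8 CPM in the other T-like clusters.

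Gclm, the modifier subunit of the same enzyme, had another order. Ciliated-like cells averaged 318 ± 35.4 CPM, 3.29-fold above aerocyte endothelial-like cells at 96.7 ± 7.40 CPM. In AT2-like cells, first for Gclc, Gclm averaged 27.0 ± 5.68 CPM, 8.47% of its own top class and 13th of 20. Of its 19 neighbouring pairs, 1 had clear ranges, that of ciliated-like and aerocyte endothelial-like cells. Across the 25 named classes, the correlation of log2(CPM + 1) between Gclc and Gclm was 0.36 (Pearson's r). These points share libraries and cells, so this and the correlations below are descriptions with no p-value. In them each class counted the same, although classes held from 25 cells (mast and basophil-like) to 14393 (general capillary endothelial-like).

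Gss, which finishes glutathione, had the narrowest span from the highest to the lowest class of the 10 members, 5.66-fold. AT1-like cells averaged 40.1 CPM and non-classical monocyte-like cells 37.4 CPM, while the median class stood at 10.8 CPM. AT1-like cells had few UMIs, with a median of 3706 per cell, and their Gss ranged from 33.2 to 45.6 CPM over libraries. This range overlapped that of non-classical monocyte-like cells, 35.9 to 38.0 CPM.

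Slc7a11, the cystine importer, stood apart in neutrophil-like cells. Its level in neutrophil-like cells was 1268, 1531, 2027 and 1578 CPM in BPTES libraries 1 and 2 and DMSO libraries 1 and 2. These cells held between 59.5% and 74.6% of all Slc7a11 UMIs in a library. Interstitial macrophage-like cells were next at 164 CPM, 9.76-fold lower, followed by non-classical monocyte-like cells at 127 CPM and classical monocyte-like cells at 91.9 CPM. Alveolar and adventitial fibroblast-like cells carried 37.4 and 77.2 CPM. In general capillary, venous, aerocyte and lymphatic endothelial-like cells and in T-like, B-like and AT2-like cells, mean levels lay between 0.57 and 1.18 CPM. The neutrophil-like class joined a cluster led by Retnlg, S100a9 and S100a8, with 1780 to 2695 CPM, and a smaller one led by Slfn4 and Acod1, with 679 to 924 CPM. The smaller cluster held deeper cells and had the highest median doublet score of the named clusters, 0.0574. Slc3a2, which encodes the heavy chain that Slc7a11 needs at the membrane, was not ordered this way: among the fitted classes it was highest in venous endothelial-like cells (442 to 478 CPM).

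**Figure D2:**
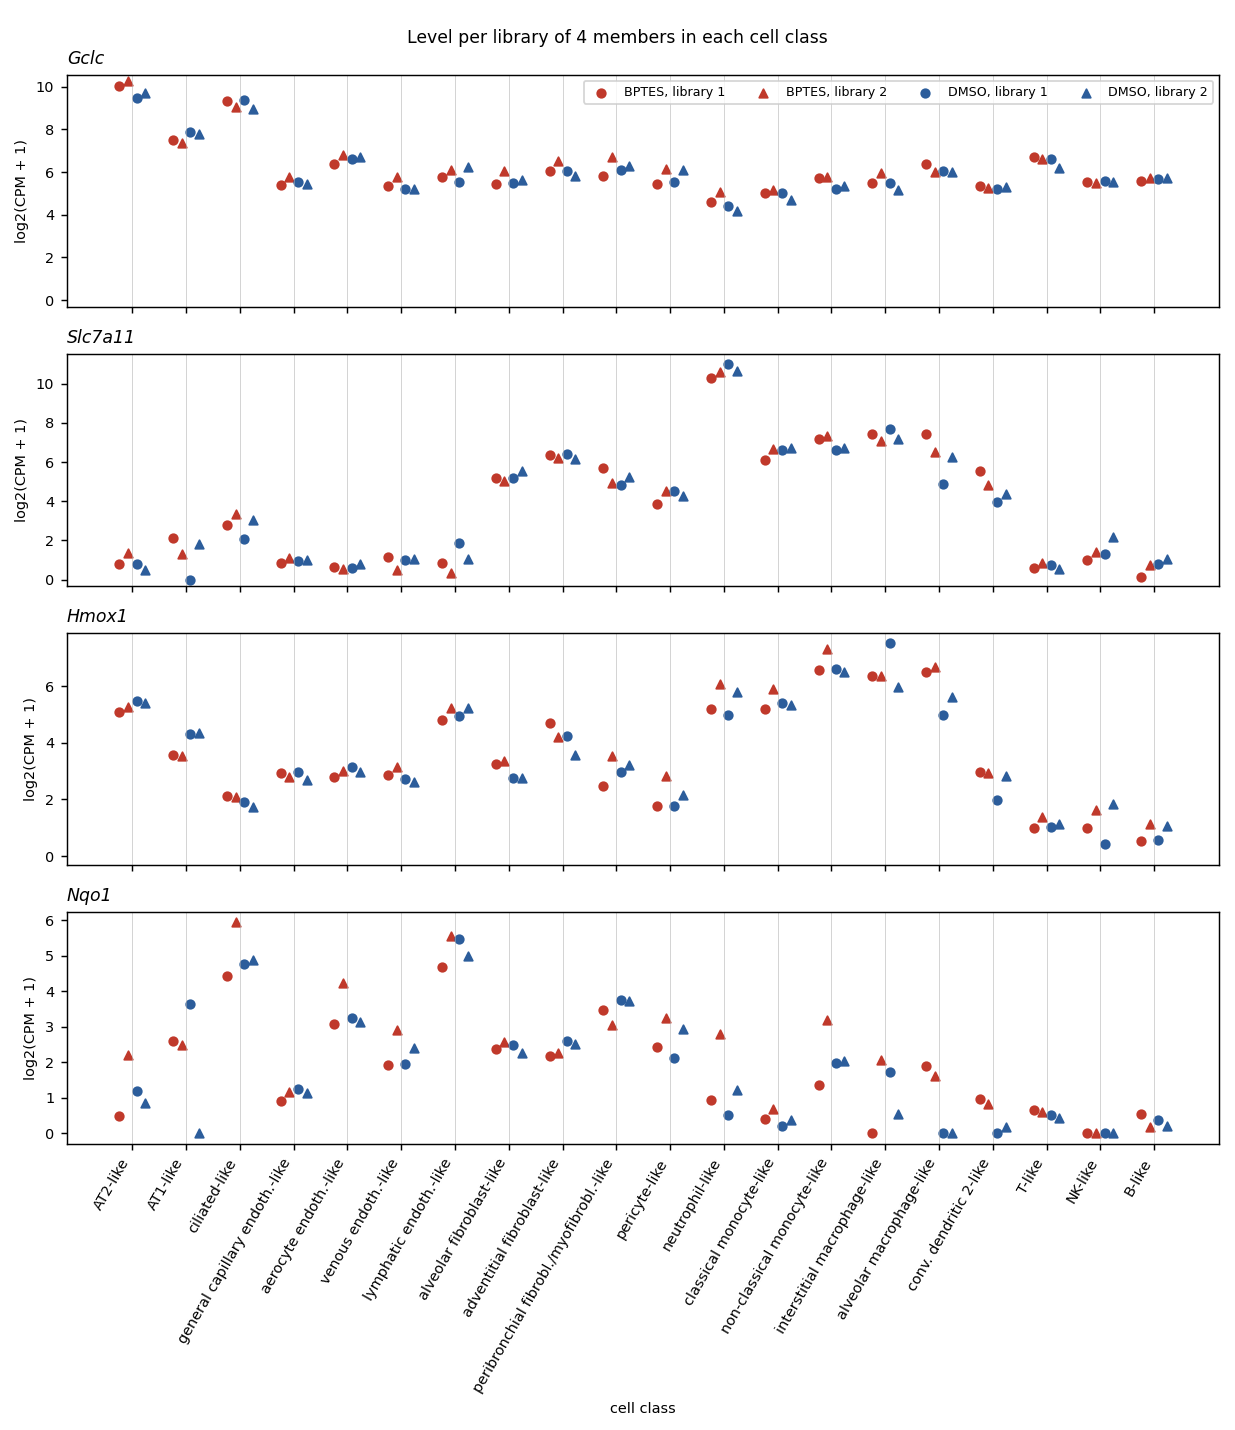
Level of Gclc, Slc7a11, Hmox1 and Nqo1 in each of 20 cell classes, as log2(CPM + 1), with 1 point per library (red for BPTES, blue for DMSO, circles for library 1, triangles for library 2). All points of AT2-like cells for Gclc, and all points of neutrophil-like cells for Slc7a11, lie above those of every other class. For Nqo1, BPTES library 2 sits above the other 3 libraries in ciliated-like and aerocyte endothelial-like cells, and for Hmox1 DMSO library 1 sits apart in interstitial macrophage-like cells.

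Gsr and Gpx1, which recycle and use glutathione, were myeloid genes. Gsr averaged 1291 ± 141 CPM in neutrophil-like cells, 879 CPM in non-classical and 774 CPM in classical monocyte-like cells, then 314 CPM in alveolar macrophage-like cells. B-like cells were lowest at 5.24 CPM, 4.57-fold below the pericyte-like class before them. A class of 25 mast and basophil-like cells, too small for the comparison of groups, measured 763 to 1580 CPM of Gsr. Gpx1 averaged 2308 ± 177 CPM in non-classical monocyte-like, 1983 CPM in classical monocyte-like and 1713 CPM in interstitial macrophage-like cells. It lay between 1049 and 1118 CPM in neutrophil-like, alveolar macrophage-like and conventional dendritic 2-like cells, and was lowest in general capillary endothelial-like cells at 62.9 CPM. The T-like cluster that was high for Gclc was also high for Gpx1, at 425 to 479 CPM against 91.2 to 204 CPM in the other T-like clusters.

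Nfe2l2, which encodes NRF2 itself, followed the myeloid order. Its mean was 810 CPM in neutrophil-like, 652 CPM in non-classical monocyte-like and 556 CPM in interstitial macrophage-like cells, followed by classical monocyte-like cells at 469 CPM, AT2-like cells at 448 CPM and, last, T-like cells at 64.2 CPM. Of the other members, Gsr had the most similar order to Nfe2l2 (r = 0.73 over 25 classes), and Gpx1 was next at 0.69. Keap1, the repressor that marks NRF2 for degradation, was highest in aerocyte endothelial-like cells (55.5 to 60.7 CPM) and at 8.95 to 12.5 CPM in neutrophil-like cells. Bach1, which represses NRF2 target genes, was highest in classical monocyte-like cells (216 to 256 CPM).

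Hmox1, which releases iron and biliverdin from haem, averaged 109 CPM in non-classical monocyte-like cells, 103 CPM in interstitial macrophage-like and 67.9 CPM in alveolar macrophage-like cells. The ranges of these 3 classes overlapped. Txnrd1 was highest in ciliated-like cells at 675 CPM, with neutrophil-like cells at 472 CPM and interstitial macrophage-like cells at 328 CPM. Its alveolar, adventitial and peribronchial fibroblast-like means lay between 246 and 263 CPM, against 41.4 to 143 CPM in the 4 endothelial-like classes. Nqo1 was scarce in most classes. Lymphatic endothelial-like cells averaged 36.2 ± 10.2 CPM and ciliated-like cells 33.8 ± 18.0 CPM, with overlapping ranges, and the third class, peribronchial fibroblast and myofibroblast-like, averaged 10.5 CPM.

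The gene with the order most like each member, out of 14603 genes with at least 10 CPM in at least 1 class, was found by Pearson's r over the same 25 classes. For Txnrd1 it was Eid3 (0.91) and for Gclm Gatad1 (0.89), followed by Rtn4r (0.89). Slc7a11 was most like Pid1 (0.89), Tnfaip2 (0.85) and Abcd2 (0.84). Gsr was most like Clec4e (0.88) and Clec4d (0.87), lectin receptors of myeloid cells. Hmox1 was most like Ctsb (0.88), a lysosomal protease, and Cd14 (0.84), a co-receptor for bacterial lipopolysaccharide. Gpx1 was most like Lst1 (0.88) and Igsf6 (0.87). Gclc was most like Kcnj13 (0.87) and Kcne2 (0.86), which encode potassium channel subunits. Gss was most like Scnn1a (0.82), a subunit of the epithelial sodium channel, Nfe2l2 most like Nadk (0.81), the kinase that makes NADP, and Nqo1 most like Triqk (0.74). The Nqo1 value was the lowest of these.

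BPTES was then compared with DMSO for each member in each fitted class, with edgeR's quasi-likelihood test and Benjamini-Hochberg adjustment over all genes of the class. No member was called at an adjusted p under 0.05: 0 of 187 tested pairs of a member and a class, where 299 of all 246483 tested pairs of a gene and a class were called (0.121%; 0.0479% higher and 0.0734% lower with BPTES). The smallest adjusted p among the members was 0.0813. At an unadjusted p under 0.05 there were 31 pairs, where 11.7% of all tested pairs passed, 27 higher and 4 lower with BPTES. These are 14.4% and 2.14% of the pairs, against 5.73% higher and 5.95% lower over all genes. DESeq2, run as an alternative, called 5 of the 166 pairs to which it gave an adjusted p, all higher with BPTES, and 2911 of 189816 pairs over all genes (1.53%). The remaining 13 pairs had too few UMIs to be tested, 5 of Slc7a11, 7 of Nqo1 and 1 of Hmox1.

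The share of the members' log2 fold changes above 0 fell most without BPTES library 2. For fits with a library left out, no such share was taken over all genes. BPTES library 2 had the highest level of the 4 libraries in 108 of the 187 pairs (57.8%), while BPTES library 1 had it in 24 (12.8%), DMSO library 1 in 30 (16%) and DMSO library 2 in 25 (13.4%). Over all tested genes, BPTES library 2 was highest in 26.3% of pairs. Nqo1 was highest in BPTES library 2 in 10 of 13 classes and in BPTES library 1 in 0. Gclm was highest there in 15 of 20 classes, Txnrd1 and Nfe2l2 in 14 of 20 each, and Gclc in 13 of 20. The log2 fold change was above 0 in 127 of 187 pairs (67.9%, against 49.5% over all genes). Without BPTES library 2 it was above 0 in 88 of 186 (47.3%), with 14 pairs higher and 12 lower at an unadjusted p under 0.05, where 3.67% and 4.4% of all pairs passed. Without BPTES library 1 it was above 0 in 138 of 188 (73.4%), with 54 higher and 1 lower (5.78% and 5.61% over all genes). Without DMSO library 1 it was above 0 in 63.6%, with 22 higher and 7 lower (4.03% and 4.31%), and without DMSO library 2 in 64.7%, with 32 higher and 11 lower (6.46% and 6.38%). BPTES library 2 had the highest median UMI count per cell (15752, against 13918 to 14633) and the highest median mitochondrial share (1.5%, against 1.37% to 1.44%). The part of these in the members' levels was not tested.

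**Figure D3:**
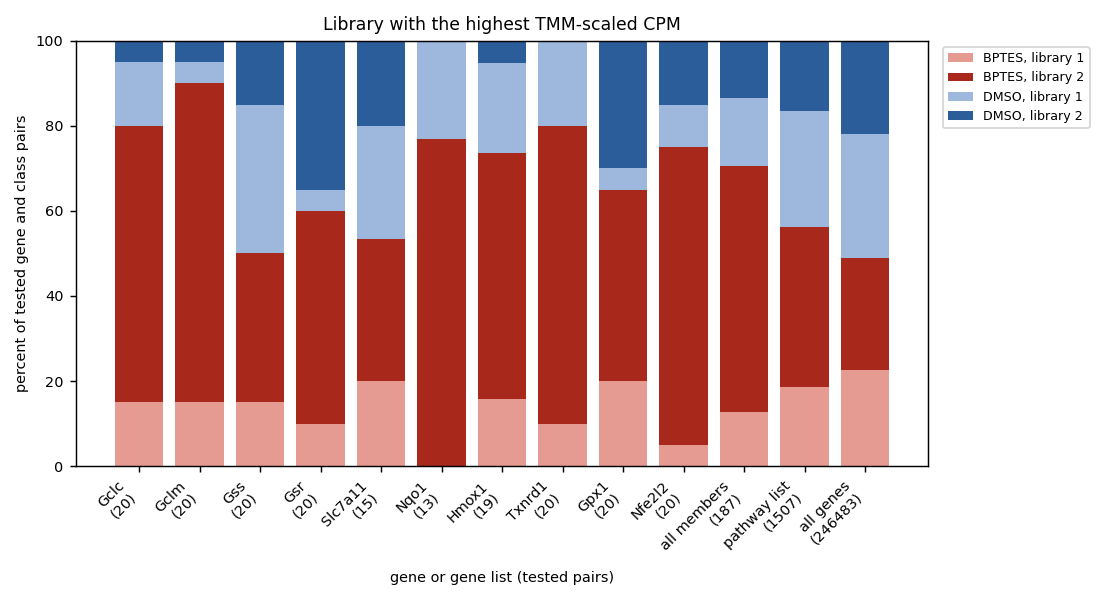
Percent of tested pairs of a gene and a class in which each library had the highest TMM-scaled CPM, for each member, for all members, for the 84 other genes of the pathway and for all genes (numbers of pairs in brackets). Dark red, BPTES library 2, takes 57.8% of the members' pairs, 37.4% of the pathway list's and 26.3% of all genes'.

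Both BPTES libraries were above both DMSO libraries in 49 pairs (26.2%) and below them in 22 (11.8%), against 21.7% and 21.8% over all genes. Gsr, Gpx1 and Nfe2l2 were above in 7 classes each, and Gclc in 6. For Nqo1 no tested class was above and 2 were below. Gpx1 was below in 5 classes, the most of any member. The classes with the most members above were venous endothelial-like and alveolar macrophage-like cells, with 6 of 9 tested members each, where 22.2% and 20.3% of all genes were above. No tested member was below in these 2 classes, where 22.1% and 19.1% of all genes were.

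**Figure D4:**
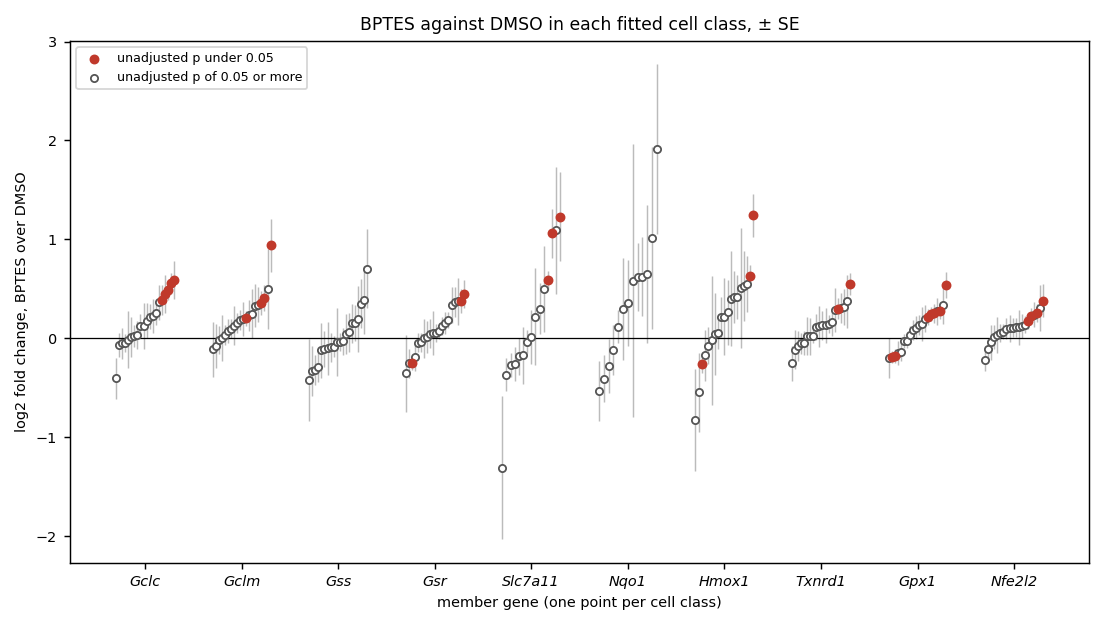
Log2 fold change of BPTES over DMSO for each member, with 1 point per fitted cell class, sorted within the member, and bars of ± 1 SE. Red points had an unadjusted p under 0.05 (31 of 187). No point passed an adjusted p of 0.05.

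Gclc in AT2-like cells had one of the smallest adjusted p-values among the members. Its level was 1045 and 1228 CPM with BPTES and 710 and 832 CPM with DMSO. Both BPTES values lay above both DMSO values, with a log2 fold change of 0.56 ± 0.11 (SE, n = 2 libraries per group; edgeR adjusted p = 0.0931, unadjusted 0.000689). It was called by DESeq2 (adjusted p = 1.71e-05), in the fit blocked by replicate number (0.00902), without a filter on low counts, and without DMSO library 2 (0.0254). The other 9 of 13 alternatives did not call Gclc, and with a library left out its log2 fold change ran from 0.44 to 0.69. With all libraries edgeR called 11 of 13049 genes in AT2-like cells (0.0843%). In the settings that called Gclc more genes were called: 120 of 12037 with DESeq2, 212 of 13049 with the block, 492 of 20379 without the filter and 165 of 13850 without DMSO library 2. The counts were deep, 3862 to 22456 UMIs of Gclc per library, and the 2 richest cells held 2.25% to 7.12% of them. Of 32 marker lists of other cell types summed in AT2-like cells, 2 were above in BPTES and 9 below. Neutrophil markers, none at 0, were 15.2 and 19.6 CPM in BPTES and 35.7 and 31.2 CPM in DMSO, and B cell markers, none at 0, 21.8 and 22.4 against 44.8 and 37.1 CPM. Their part in the result was not tested.

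AT2-like cells were also more numerous in the BPTES libraries, 401 and 415 against 124 and 243, and Gclc was also higher in sums over whole libraries. Over all cells, it measured 124 and 146 CPM with BPTES and 71.0 and 81.0 CPM with DMSO. AT2-like cells held 57.0% and 54.8% of the Gclc UMIs with BPTES and 23.4% and 34.6% with DMSO. In such sums, more cells of a type and more RNA per cell cannot be told apart.

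Gclc in other classes lay higher with BPTES at an unadjusted p under 0.05 in non-classical monocyte-like, venous endothelial-like, interstitial macrophage-like and neutrophil-like cells, with log2 fold changes of 0.38 to 0.59 and adjusted p-values of 0.290 to 0.708. Without BPTES library 2 the log2 fold change was 0.14 in venous endothelial-like, 0.20 in interstitial macrophage-like and 0.32 in neutrophil-like cells, and without BPTES library 1 it was 0.59 in venous endothelial-like cells, a call (edgeR adjusted p = 0.0487, 1 of 285 calls among 12866 genes). In interstitial macrophage-like cells it was 0.28 without DMSO library 2. In non-classical monocyte-like cells it measured 52.0 and 53.8 CPM against 35.4 and 39.5 CPM. Summed markers of AT2 cells, the class richest in Gclc, were above in BPTES in 17 of the 19 other classes and below in 0. In non-classical monocyte-like cells they were 362 and 299 CPM against 141 and 225 CPM. RNA carried over in the ratio of AT2 markers to Gclc would add 1.99 and 1.97 CPM of Gclc to this class with BPTES and 0.566 and 0.998 CPM with DMSO. In neutrophil-like cells, where Gclc was 23.2 and 32.5 against 19.95 and 17.1 CPM, it would add 1.91 and 3.18 against 0.422 and 0.893 CPM. The part of AT2 RNA in the Gclc differences was not tested. Fitted alone, the larger neutrophil-like cluster had Gclc at 12.9 and 29.7 CPM with BPTES and 17.1 and 9.51 CPM with DMSO, groups that overlap, and the smaller one had 35.3 and 35.6 against 22.7 and 25.2 CPM (edgeR adjusted p = 0.436 and 0.568). In AT1-like cells, the lung's thin gas-exchange epithelium, Gclc was 183 and 161 CPM with BPTES and 236 and 223 CPM with DMSO (log2 fold change -0.40 ± 0.21, edgeR adjusted p = 1.00), with both BPTES values below.

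Alveolar macrophage-like cells, the resident phagocytes of the air space, had all 9 tested members on the BPTES side of 0, with a median log2 fold change of 0.39 against -0.0020 over all 10316 genes of the class. Ciliated-like cells had all 10 members on that side too, with a smaller median of 0.13 and none at an unadjusted p under 0.05. In alveolar macrophage-like cells no member and no other gene was called by edgeR (0%), and 4 members had an unadjusted p under 0.05. Hmox1 measured 90.5 and 103 CPM with BPTES and 31.0 and 47.5 CPM with DMSO, a log2 fold change of 1.24 ± 0.21 (edgeR adjusted p = 0.675, unadjusted 0.000969). Txnrd1 measured 390 and 366 CPM against 266 and 252 CPM (log2 fold change 0.55 ± 0.11, edgeR adjusted p = 0.675). For both genes the BPTES libraries lay clear of the DMSO libraries. Gclm was 126 and 76.0 CPM against 48.0 and 55.4 CPM (log2 fold change 0.94), and Slc7a11 174 and 89.5 CPM against 29.0 and 74.6 CPM (1.23). Without BPTES library 1 these log2 fold changes were 0.54 and 0.70, and that of Slc7a11 was 0.81 without DMSO library 1 and 2.18 without DMSO library 2. Hmox1 was called by DESeq2 (adjusted p = 0.0494), which called 13 of 5516 genes. With a library left out, its log2 fold change ran from 1.02 to 1.65. Without the filter on low counts, edgeR called Hmox1, Txnrd1, Gclm and Slc7a11, as it did 400 of 17923 genes. Of the pathway list, 13 of the 71 tested pathway genes had an unadjusted p under 0.05 on the BPTES side and 0 on the other, where 6.47% of all genes passed in either direction.

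These values rest on 83, 111, 33 and 64 alveolar macrophage-like cells. A few cells gave much of the RNA: the 2 richest cells held 22.6% to 45.2% of the Hmox1 UMIs and 23.5% to 59.8% of the Slc7a11 UMIs of a library. Of 32 marker lists of other cell types in this class, 6 were above in BPTES and 6 below. Plasma cell markers, none at 0, were 5220 CPM in BPTES library 1 and 216 to 240 CPM in the others. Neutrophil markers, none at 0, were 108 and 449 CPM with BPTES and 88.9 and 95.6 CPM with DMSO. RNA carried over in the ratio of neutrophil markers to Slc7a11 would add 2.68, 12.3, 2.07 and 2.17 CPM of Slc7a11 in BPTES libraries 1 and 2 and DMSO libraries 1 and 2. Markers of classical monocytes, none at 0, were lower with BPTES, 546 and 647 against 1045 and 892 CPM. The part of these lists in the members' levels was not tested.

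**Figure D5:**
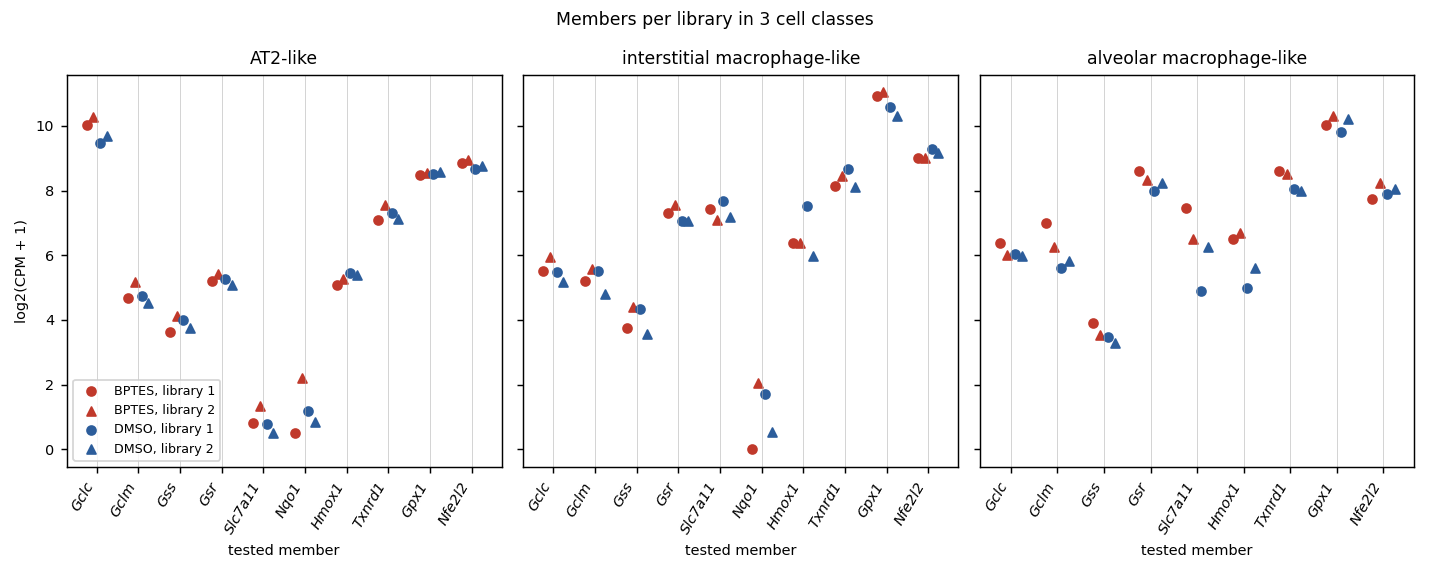
Tested members in AT2-like, interstitial macrophage-like and alveolar macrophage-like cells, as log2(CPM + 1) with 1 point per library (red for BPTES, blue for DMSO, circles for library 1, triangles for library 2). Both red points lie above both blue ones for 3 members in AT2-like cells (Gclc among them) and 3 in interstitial macrophage-like cells (Gpx1 among them). In alveolar macrophage-like cells they do so for 6, among them Hmox1, Txnrd1, Gclm and Slc7a11. Both lie below for 1, 1 and 0 members of these classes.

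Interstitial macrophage-like cells, which sit in the lung's connective tissue, had Gpx1 at 1962 and 2099 CPM with BPTES and 1539 and 1252 CPM with DMSO. The groups did not overlap, and the log2 fold change was 0.54 ± 0.13 (edgeR adjusted p = 0.0951). DESeq2 called it (adjusted p = 0.00396), as did edgeR without DMSO library 1 (0.0253). These settings called 359 of 9763 and 245 of 12771 genes of the class. Gsr measured 156 and 187 CPM against 133 and 132 CPM (log2 fold change 0.38, edgeR adjusted p = 0.185, and 0.24 without BPTES library 2). With all libraries this class had the highest share of genes called by edgeR, 133 of 11827 (1.12%). Of 32 marker lists of other cell types, 8 were above in BPTES and 9 below. Classical monocyte markers, none at 0, were 2715 and 2720 CPM with BPTES and 1655 and 1612 CPM with DMSO. With BPTES, classical monocyte-like cells had less Gpx1 than this class (1844 and 1863 CPM), and with DMSO more (2071 and 2155 CPM), while their Gsr was higher in every library (675 to 858 CPM). Cycling markers, none at 0, were 112 and 90.8 against 35.5 and 28.0 CPM. Their part in the result was not tested.

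Hmox1 in the same class was 81.9 and 82.0 CPM with BPTES and 185 and 62.4 CPM with DMSO. The high value is DMSO library 1, in which 2 of 88 cells held 77.6% of the 406 Hmox1 UMIs. The log2 fold change was -0.55 ± 0.40 (edgeR adjusted p = 0.554). It was 0.39 without DMSO library 1 and -1.17 without DMSO library 2, so its direction rests on which DMSO library is kept. With all libraries it was called by edgeR without the filter on low counts, lower with BPTES, as were 1239 of 19531 genes in either direction. It was also called, again lower with BPTES, in the fit that kept only DMSO library 1 of the DMSO group.

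Gpx1 was lower in both BPTES libraries in the 2 monocyte classes, and Gsr in the classical one. In classical monocyte-like cells Gpx1 was 1844 and 1863 CPM with BPTES and 2071 and 2155 CPM with DMSO (log2 fold change -0.19 ± 0.06, edgeR adjusted p = 0.229). Gsr was 675 and 741 against 823 and 858 CPM (-0.25 ± 0.07, edgeR adjusted p = 0.208). In non-classical monocyte-like cells Gpx1 was 2151 and 2180 against 2377 and 2526 CPM (-0.18, edgeR adjusted p = 0.685). In none of these 3 did the groups overlap. Of 32 marker lists of other cell types, 5 were above in BPTES and 12 below in classical monocyte-like cells. In non-classical monocyte-like cells 4 were above and 7 below, and in T-like cells 5 and 14. Their part in the Gpx1 and Gsr levels was not tested. For Gsr in non-classical monocyte-like cells the groups did overlap, with 917 and 817 against 849 and 933 CPM (log2 fold change -0.04, edgeR adjusted p = 0.949). In neutrophil-like cells the log2 fold change of Gsr was -0.19, and 0.01 with doublets kept. Fitted alone, the larger neutrophil-like cluster had Gsr at 1424 and 1401 against 1673 and 1656 CPM (edgeR adjusted p = 0.0952). Its Gpx1 was 593 and 573 against 652 and 626 CPM. In the smaller one, Gsr was 947 and 993 against 1061 and 1018 CPM, and Gpx1 1602 and 1626 against 1819 and 1831 CPM. None of these was called. General capillary endothelial-like, venous endothelial-like, alveolar fibroblast-like and T-like cells had Gpx1 higher with BPTES at an unadjusted p under 0.05, with log2 fold changes of 0.22 to 0.28 and adjusted p-values of 0.156 to 0.351 (0.14 in alveolar fibroblast-like cells without DMSO library 1). In T-like cells, Gpx1 was 234 and 213 CPM against 195 and 174 CPM, and the Gpx1-rich cluster led by Il23r made up 29.8% and 27.8% of the class with BPTES and 27.9% and 15% with DMSO. Fitted alone, that cluster gave a log2 fold change of 0.06 ± 0.07, the cluster led by Sidt1 and Klrc1 gave -0.10 and the one led by Dapl1 and Lef1 gave 0.02. The cluster led by Gzmk and Trat1 had 204 and 173 CPM against 144 and 139 CPM, a log2 fold change of 0.42 ± 0.11 (edgeR adjusted p = 0.452). Without DMSO library 1 the T-like difference was called (edgeR adjusted p = 0.0171), as were 661 of 14300 genes.

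Slc7a11 in neutrophil-like cells, its richest class, was lower in both BPTES libraries (1268 and 1531 against 2027 and 1578 CPM), with a log2 fold change of -0.37 ± 0.17 (edgeR adjusted p = 0.779). It was -0.24 without BPTES library 1 and -0.17 without DMSO library 1. In the main neutrophil-like cluster alone it was 1780 and 2170 CPM with BPTES and 2570 and 2695 CPM with DMSO, and the log2 fold change was -0.41 ± 0.09 (edgeR adjusted p = 0.0553). In the smaller cluster it was 679 and 798 against 924 and 750 CPM, groups that overlap, with a log2 fold change of -0.18 ± 0.13 (edgeR adjusted p = 0.748). DMSO library 1 had the smallest share of the second, Slc7a11-poorer cluster, 14.6% of the class against 21.1% to 24.6% in the others. In non-classical monocyte-like cells Slc7a11 was higher with BPTES, 142 and 163 against 97.0 and 105 CPM, with a log2 fold change of 0.59 ± 0.09 (edgeR adjusted p = 0.240, unadjusted 0.00053), and DESeq2 called it (adjusted p = 0.0042), 1 of 54 calls among 7434 genes. Neutrophil markers in that class, none at 0, were 155 and 149 CPM with BPTES and 150 and 163 CPM with DMSO. Conventional dendritic 2-like cells measured 45.2 and 27.5 against 14.8 and 19.8 CPM (1.06 ± 0.25, edgeR adjusted p = 0.279, and 0.65 without BPTES library 1). RNA carried over in the ratio of neutrophil markers to Slc7a11 would add 13.1 to 17.3 CPM there, against 14.8 and 19.8 CPM measured with DMSO. Cycling markers, none at 0, were 349 and 268 against 175 and 129 CPM in the dendritic class, and their part was not tested.

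Hmox1 in alveolar fibroblast-like cells had the smallest adjusted p among the members. Its level was low, 8.64 and 9.20 CPM with BPTES and 5.82 and 5.73 CPM with DMSO, and the groups did not overlap. The log2 fold change was 0.63 ± 0.11 (edgeR adjusted p = 0.0813), and DESeq2 called it (adjusted p = 0.00549). In this class edgeR called 53 of 17057 genes (0.311%), and DESeq2 called 918 of 13750. The class joined 2 clusters, and the one richer in Hmox1 made up 29.3% and 32.8% of it with BPTES and 19.1% and 21.7% with DMSO. Fitted alone, the larger cluster gave 0.59 ± 0.14 (edgeR adjusted p = 0.140) and the smaller 0.45 ± 0.20 (0.325). Of 32 marker lists of other cell types, 13 were above with BPTES and 13 below. Markers of alveolar macrophages, a class richer in Hmox1, were lower with BPTES (47.6 and 39.9 against 88.1 and 89.1 CPM, none at 0), while AT2 markers were higher (262 and 202 against 103 and 164 CPM, none at 0). Their part in the result was not tested. In AT2-like cells Hmox1 was on the other side, 32.8 and 37.6 against 43.0 and 41.3 CPM (log2 fold change -0.26, edgeR adjusted p = 0.289, and -0.16 without BPTES library 1).

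Nqo1, the classical reporter of NRF2 activity, had no pair at an unadjusted p under 0.05. Without the filter on low counts, edgeR called it in ciliated-like and neutrophil-like cells, where 308 of 19475 and 234 of 19717 genes were called. In ciliated-like cells it was 20.5 and 60.3 CPM with BPTES and 26.1 and 28.3 CPM with DMSO, and in aerocyte endothelial-like cells 7.33 and 17.7 against 8.36 and 7.80 CPM. BPTES library 2 was high and BPTES library 1 the lowest of the 4 in both. Without BPTES library 2 the log2 fold changes were -0.42 and -0.14, and without BPTES library 1 they were 1.14 with adjusted p-values of 0.00142 and 0.00262, where 183 of 12693 and 413 of 12006 genes were called. In ciliated-like cells the 2 richest of the 165 cells in BPTES library 2 held 11.4% of the 333 Nqo1 UMIs. In neutrophil-like cells Nqo1 was 0.909 and 5.86 CPM against 0.434 and 1.32 CPM, with log2 fold changes of 1.91 with all libraries, 0.02 without BPTES library 2, 2.94 without DMSO library 2 and 2.68 without BPTES library 1, the last a call (edgeR adjusted p = 0.0098, 1 of 69 calls among 12266 genes). Lymphatic endothelial-like cells had 24.6 and 45.9 CPM against 43.6 and 30.9 CPM, with the lowest and highest values both from BPTES, and the log2 fold change of -0.12 turned to 0.30 without BPTES library 1 and 0.16 without DMSO library 1.

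Nfe2l2 had 17 of 20 estimates above 0, the most of any member, with a median log2 fold change of 0.11 and adjusted p-values of 0.343 or more. Gss had 8 of 20 above 0 and no pair at an unadjusted p under 0.05. Whether the effect of BPTES differed between classes was tested for each gene with edgeR's quasi-likelihood test of a class by treatment term. The sums of all 20 classes come from the same 4 libraries. The model had a term for each library, which takes out what a library's classes share, and treated the sums as otherwise independent. It was called for 0 of 10 members and for 556 of 18581 genes (2.99%), and the smallest adjusted p-values were 0.0603 for Gpx1 and 0.0950 for Slc7a11. At an unadjusted p under 0.05 there were 3 members, Gpx1, Slc7a11 and Gsr, where 18% of all genes passed.

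The rest of the pathway was read from a list of 84 genes: regulators, glutathione supply, glutathione-using enzymes, thioredoxins and peroxiredoxins, NADPH supply, and other NRF2-linked genes. Of 1507 tested pairs 1 was called (edgeR adjusted p under 0.05), Idh1 in interstitial macrophage-like cells (0.0664% of pairs, against 0.121% over all genes). Idh1 encodes the cytosolic isocitrate dehydrogenase that makes NADPH. It measured 109 and 104 CPM with BPTES and 55.5 and 60.6 CPM with DMSO, and rose by a log2 fold change of 0.87 ± 0.12 (edgeR adjusted p = 0.0279). The call was lost without BPTES library 1 (adjusted p = 0.0537), with doublets kept (0.0720) and with mitochondrial limits of 5% and 20% (0.0592 and 0.0542). The shift in monocyte and cycling markers given above for this class stands beside it, and its part was not tested. At an unadjusted p under 0.05 the list had 119 pairs higher and 58 lower (7.90% and 3.85%, against 5.73% and 5.95% over all genes), and without BPTES library 2 it had 51 higher and 44 lower of 1525, where 3.67% and 4.4% of all pairs passed. By group, the pairs higher and lower at that threshold were 15 and 17 of 180 for regulators, 9 and 3 of 165 for glutathione supply, 37 and 16 of 433 for glutathione-using enzymes, 24 and 10 of 277 for thioredoxins and peroxiredoxins, 8 and 5 of 115 for NADPH supply, and 26 and 7 of 337 for the others.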

How the data were processed

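Per the submitters' processing notes, the authors ran Cell Ranger 8.0.1 on mm10, and the deposited matrices hold raw UMI counts per gene and cell barcode. The libraries were made with 10x Genomics GEM-X 3′ kits, per the labels' protocols. Barcodes with at least 500 genes, 1000 UMIs and at most 10% mitochondrial UMIs were kept, and the highest doublet scores (0.4% of barcodes per 1000) were removed. Cells were clustered on 2000 variable genes and 40 principal components with 15 neighbours (Leiden, igraph 0.11.9, resolution 1), and clusters were named by markers. UMIs were summed per library and class and tested with edgeR 4.0.16 (TMM, filterByExpr, quasi-likelihood, no covariates within a class, a library term across classes). The SE is the absolute log2 fold change divided by the square root of F. No whole-number UMI was altered before summing, and no length scaling was used, since 3′ UMIs do not grow with length. Carried-over levels are a class's marker sum divided by that of the richest class, times the gene's level there. On simulated counts, 94% of 2-fold changes were recovered in general capillary endothelial-like cells (15647 genes) and 44% in alveolar macrophage-like cells (10425 genes). For 4-fold changes the shares were 100% and 99%. Only genes above a floor of mean UMIs were changed, so these shares do not cover scarcer genes. All genes were drawn with the common dispersion of the class. On the measured counts of general capillary endothelial-like cells, 3305 of 15661 genes had an unadjusted edgeR p under 0.05 and 0 were called. The simulated shares need not hold for such counts. Named genes were the members, pathway genes called in a class (at most 5 a class), Keap1, Bach1 and Slc3a2, and the 3 genes most like each member in pattern, of which 1 to 3 are printed. Glrx, Glrx5 and Prdx2 lie outside that rule and were named after their values were seen, because their effect differed between classes. A further gene of that rule is not reported here. Alternatives were DESeq2 1.42.0, other size factors, no count filter, a replicate block, other mitochondrial limits, doublets kept, resolutions 0.5 and 2, and leaving out each library. Clusters fitted alone were chosen after seeing the data. The members and lists were chosen with earlier results of these data known.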

Additional observations from a re-analysis of the deposited data

Results flagged for a closer look

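The BPTES effect differed between cell classes, by edgeR's test of a class by treatment term over all 20 fitted classes, for 4 of the 84 other pathway genes. The sums share 4 libraries, and the model had a library term. For Glrx, a glutathione-dependent thiol reductase, the adjusted p was 0.00649, with log2 fold changes from -0.74 in neutrophil-like cells (122 and 129 CPM with BPTES, 235 and 183 CPM with DMSO) to 0.46 in NK-like cells. For Prdx2, a peroxiredoxin, it was 0.0103, with -0.27 in neutrophil-like cells and 0.49 in interstitial macrophage-like cells. For Idh1 it was 0.0162, with -0.36 in peribronchial fibroblast and myofibroblast-like cells and 0.87 in interstitial macrophage-like cells. For Glrx5, a mitochondrial glutaredoxin, it was 0.025, with -0.28 in neutrophil-like cells and 0.49 in interstitial macrophage-like cells. Of these end values, only Idh1 in interstitial macrophage-like cells was called within its class. Over all genes, 556 of 18581 were called by this test (2.99%). None of the 4 was called without BPTES library 1, without BPTES library 2 or without DMSO library 1, and without DMSO library 2 Glrx and Glrx5 were. Glrx, Idh1 and Prdx2 were called with other size factors and without the filter on low counts, and Glrx5 was not.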

How the results depend on the processing

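The count of called members was 0 with other size factors, with mitochondrial limits of 5% and 20%, with doublets kept and at resolutions of 0.5 and 2. It was 18 (17 higher; 9.05% of pairs, against 2.86% over all genes) without the filter on low counts, 5 with DESeq2 (3.01%, against 1.53%) and 1 with the replicate block (0.535%, against 1.08%). Leaving out a library gave 0 to 6: 6 without BPTES library 1, 0 without BPTES library 2, 3 without DMSO library 1 and 4 without DMSO library 2, or 3.19%, 0%, 1.6% and 2.14% of pairs against 1.47%, 0.364%, 0.687% and 1.12% over all genes. The pathway list's count of 1 became 75 without the filter (4.5% of pairs), 13 with DESeq2 (1.04%) and 10 with the replicate block (0.664%), the last 2 below the shares over all genes just given. It was 0 with a mitochondrial limit of 20% and with doublets kept (0.086% and 0.0364% over all genes). It was 5 to 41 with a library left out: 2.68% of pairs without BPTES library 1 (41), 0.328% without BPTES library 2, 0.457% without DMSO library 1 and 1.25% without DMSO library 2. The count of members whose effect differed between classes was 1, Slc7a11, without the filter, and 0 with other size factors and with each library left out. The cause of these shifts was not tested. Replicate numbers are not said to pair libraries, and the correlation of same-numbered deviations ran from -0.197 to 0.171 over classes. The replicate block changed no other member's call than that of Gclc in AT2-like cells.

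Of the 40 pairs that were followed, 31 were picked for an unadjusted edgeR p under 0.05 with all libraries. The refits reuse these libraries, so the share that turned direction does not measure stability over all pairs. Over all tested member pairs, 127 of 187 estimates were above 0 with all libraries and 88 of 186 without BPTES library 2. Of 511 refits of the 40 pairs, 6 turned the direction: Gsr in neutrophil-like cells with doublets kept (0.011), and the others with a library left out. Hmox1 in interstitial macrophage-like cells ran from -1.17 to 0.39 (above 0 without DMSO library 1). Nqo1 ran from -0.42 to 1.14 in ciliated-like and from -0.14 to 1.14 in aerocyte endothelial-like cells (below 0 without BPTES library 2), and from -0.60 to 0.30 in lymphatic endothelial-like cells (above 0 without BPTES library 1 or DMSO library 1). Gpx1 in the T-like cluster led by Sidt1 also turned (-0.10). In a fit with 1 library left in a group, that library is assumed to vary like the others. Over all genes the test of a difference between classes called 556, and 45 to 614 with a library left out (75 without BPTES library 1, 45 without BPTES library 2, 67 without DMSO library 1). With a mitochondrial limit of 5%, alveolar macrophage-like cells gave no value, and at resolution 0.5 interstitial macrophage-like cells gave none.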
